A study of Mus musculus with 3 samples.

Results

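Heat shock proteins and their cochaperones were examined in nephron progenitors of the embryonic mouse kidney. The members were all genes with a single-gene probe set whose symbol begins with Hspa, Hspb, Hspd, Hspe, Hsph, Dnaja, Dnajb, Dnajc or Bag and a number, or with Hsp90, together with Hsf1 and Hsf2. This rule found 77 genes on 180 probe sets, out of 18193 named genes on 34945 single-gene probe sets. The rule uses gene names and no measured value. Hsf1 and Hsp90ab1 were not analysed here. The cells were cap mesenchyme, sorted by fluorescence from dissociated E15.5 kidneys (Theiler stage 23) of CD-1 embryos carrying Tg(Six2-EGFP/cre)1Amc. All 3 arrays formed 1 group, without nontransgenic or unsorted cells for comparison. Each array was made from a pool of about 5 to 10 kidneys, held for 5 minutes in trypsin at 37 °C and amplified in 2 rounds, and the sex was recorded as unknown. The transgene is driven by Six2 sequences, so a sorted cell is one that held the fluorescent protein.

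Chaperones of the HSP70 family bind exposed hydrophobic stretches of unfolded proteins and release them in a cycle of ATP hydrolysis. J-domain proteins (the Dnaja, Dnajb and Dnajc genes) deliver the clients and start hydrolysis. Many BAG proteins and the HSP110 relatives exchange the nucleotide and so open the complex. HSP90 takes over clients at a later stage of folding, the HSP60 and HSP10 chaperonin encloses them in mitochondria, and small heat shock proteins hold them without ATP. Heat shock factors bind inverted GAA repeats called heat shock elements and raise inducible members after heat or other proteotoxic stress. In adult kidney, inducible HSP70 and Hspb1 are known to rise in tubules after ischaemia.

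Promoter sequences from RefSeq (GRCm38.p6) are shown for 6 members because they carry the elements by which inducible and endoplasmic reticulum (ER) chaperones are usually recognised. Each run is the 250 bases before an annotated gene start, with matches in capitals. A 3-unit heat shock element was searched as GAA, TTC and GAA, each unit set off by 2 bases of any kind. A 2-unit element was GAA then TTC, or TTC then GAA, with the same spacing, and any 3-unit element contains it. The ER stress response element was searched as CCAAT and CCACG with 9 bases of any kind between them. Both strands were read, and the ER element and the heat shock elements do not contain each other. Capitals mark the overlapping 3-unit matches in Hspe1, the 2-unit match in Hspa1b and Hspa1a, and the ER stress response elements in the remaining promoters.
Hspe1 (chr1:55087898-55088147, plus strand): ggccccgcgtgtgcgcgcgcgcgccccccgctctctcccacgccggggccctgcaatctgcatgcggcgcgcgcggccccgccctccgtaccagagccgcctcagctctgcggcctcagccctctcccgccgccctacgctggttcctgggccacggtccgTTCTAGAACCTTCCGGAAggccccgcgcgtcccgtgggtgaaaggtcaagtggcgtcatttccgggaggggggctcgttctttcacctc
Hspa1b (chr17:34959239-34959488, minus strand): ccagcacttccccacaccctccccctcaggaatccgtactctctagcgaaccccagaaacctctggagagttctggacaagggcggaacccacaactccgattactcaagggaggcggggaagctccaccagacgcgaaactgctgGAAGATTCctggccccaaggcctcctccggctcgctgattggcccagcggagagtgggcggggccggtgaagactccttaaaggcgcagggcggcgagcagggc
Hspa1a (chr17:34972157-34972406, minus strand): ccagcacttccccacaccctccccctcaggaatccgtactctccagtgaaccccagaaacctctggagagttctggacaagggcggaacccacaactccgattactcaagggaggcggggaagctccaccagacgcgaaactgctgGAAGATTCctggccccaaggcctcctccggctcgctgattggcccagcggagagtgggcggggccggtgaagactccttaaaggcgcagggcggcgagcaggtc
Hspa5 (chr2:34771840-34772089, plus strand): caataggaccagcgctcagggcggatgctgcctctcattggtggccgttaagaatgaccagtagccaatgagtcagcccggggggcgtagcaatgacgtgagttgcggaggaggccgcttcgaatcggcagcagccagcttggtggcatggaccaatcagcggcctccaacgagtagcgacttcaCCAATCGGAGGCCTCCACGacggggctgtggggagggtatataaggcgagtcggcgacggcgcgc
Hsp90b1 (chr10:86705445-86705694, minus strand): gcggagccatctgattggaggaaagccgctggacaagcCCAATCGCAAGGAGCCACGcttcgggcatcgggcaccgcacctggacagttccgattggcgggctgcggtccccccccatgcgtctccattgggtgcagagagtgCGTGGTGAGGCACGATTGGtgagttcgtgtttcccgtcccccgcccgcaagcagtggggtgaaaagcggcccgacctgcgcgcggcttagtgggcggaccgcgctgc
Dnajc3 (chr14:118937682-118937931, plus strand): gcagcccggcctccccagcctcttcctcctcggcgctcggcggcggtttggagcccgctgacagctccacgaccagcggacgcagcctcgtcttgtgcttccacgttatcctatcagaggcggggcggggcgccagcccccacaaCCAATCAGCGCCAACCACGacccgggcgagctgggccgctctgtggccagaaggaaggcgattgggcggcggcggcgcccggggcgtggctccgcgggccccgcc

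The element of Hspe1 lies at chr1:55088059-55088076 and is the same stretch of 18 bases that the promoter of Hspd1 holds on the opposite strand, since the pair of chaperonin genes is transcribed in opposite directions from a shared region. The windows of Hspa1a and Hspa1b were identical at 247 of 250 bases. RefSeq promoters were found for 63 of the 77 members. The 3-unit element was present in 3 of these 63 (Dnajb6, Hspd1 and Hspe1), or 4.76%, against 0.514% of 27025 genes with a promoter. The 2-unit element was present in 14 of 63 members (22.2%), against 14.5% of all genes, and in 7 of the 11 heat-inducible members with a promoter. Those members were listed as inducible by Hsf1, so a high share among them is built into the list. The matches of Hspd1 and Hspe1, and those of Hspa1a and Hspa1b, are not independent observations. Hspa5, Hsp90b1 and Dnajc3 were the 3 members with an ER stress response element, which 35 of the 27025 genes (0.13%) carried. These are matches of letters and were not tested for binding.

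Most members were detected in the sorted cells, and the subfamilies differed widely in how many of their genes were. Signals are linear array intensities. A probe set was called above background when log2(signal + 16), minus the level of 150 probe sets for sensory receptor, hair and mucosal defence genes on the same array, exceeded 0. The test was limma's, one-sided, at a Benjamini-Hochberg adjusted p under 0.05 over 45037 probe sets. One such probe set was enough for a gene to pass, and values are given for each gene's brightest probe set by mean log2 signal. By this measure 60 of the 77 members (77.9%) were above background, against 54.4% of all 18193 named genes. Over probe sets the counts were 115 of 180 members' probe sets, against 47.2% of all single-gene probe sets. The median distance over the background level was 3.65 on the log2 scale for the members and 1.20 for all named genes. Signals of different genes are not ranked, because probe sets differ in affinity. In RNA of pooled cells, fewer expressing cells and less RNA per cell cannot be told apart.

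**Figure D1:**
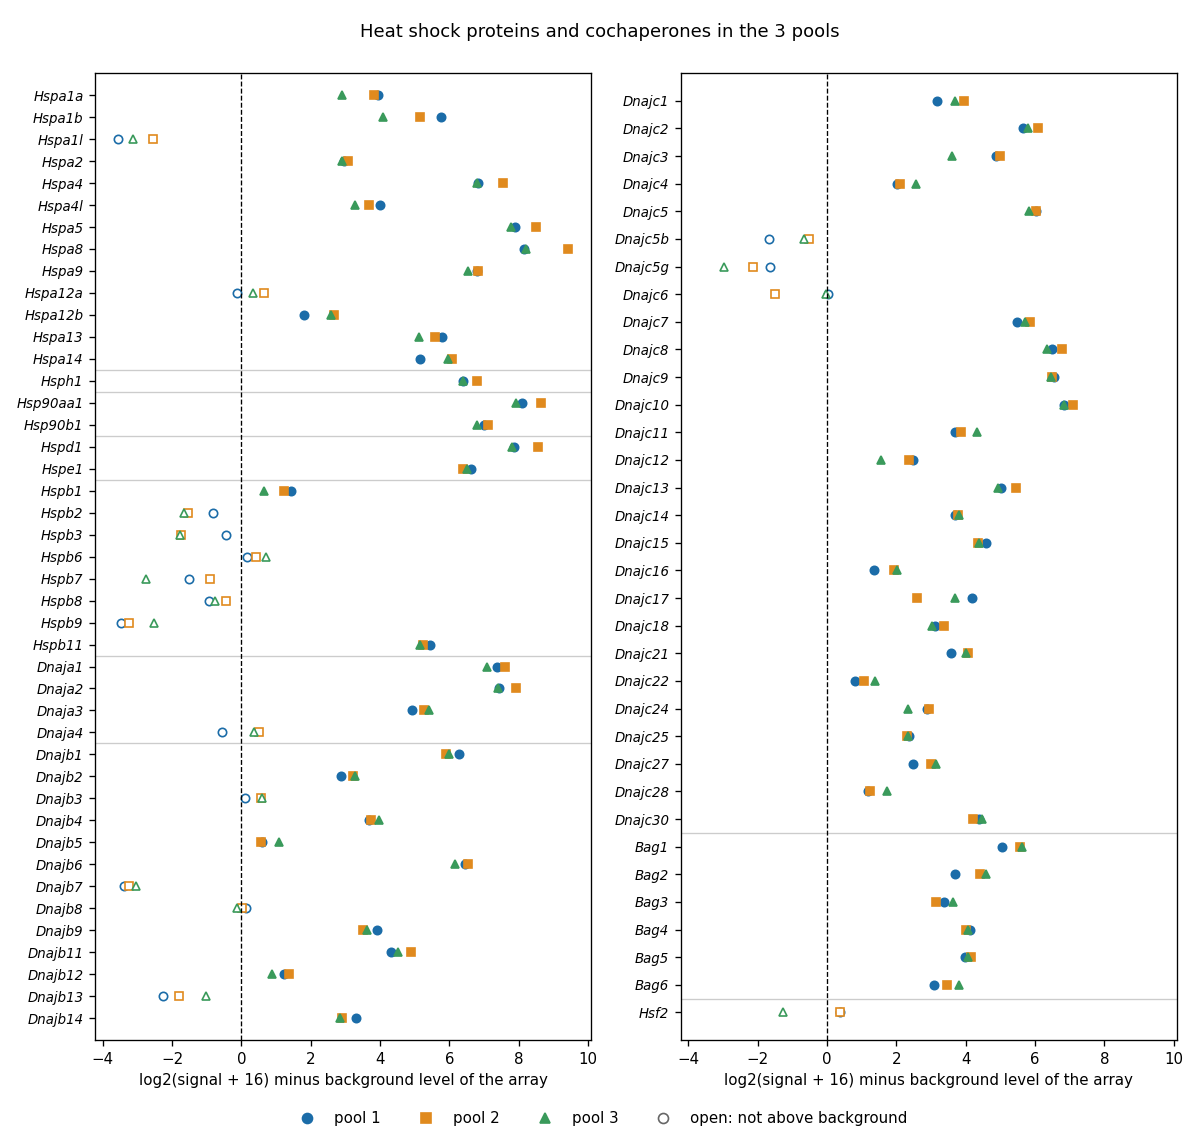
Each row is 1 of the 77 members, and the 3 symbols are the 3 pools, plotted as log2(signal + 16) minus the background level of the same array (dashed line at 0). Open symbols mark the 17 genes not above background, among them 6 of 8 Hspb genes and most of the germ cell forms.

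Detection was complete or nearly so in the core folding machinery and sparse among small heat shock proteins. All 6 Bag genes, both Hsp90 genes, the chaperonin pair Hspd1 and Hspe1, and Hsph1 were above background. So were 11 of 13 Hspa genes (84.6%), 24 of 27 Dnajc genes (88.9%), 3 of 4 Dnaja genes (75.0%) and 9 of 13 Dnajb genes (69.2%). Of the 8 Hspb genes 2 passed (25.0%), a share below the 54.4% of all named genes. Hsf2, the one measured heat shock factor within the naming rule, did not pass limma's test, and 0 of 1 had an unadjusted p under 0.05. These counts describe the subfamilies side by side, and no test between them was made.

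**Figure D2:**
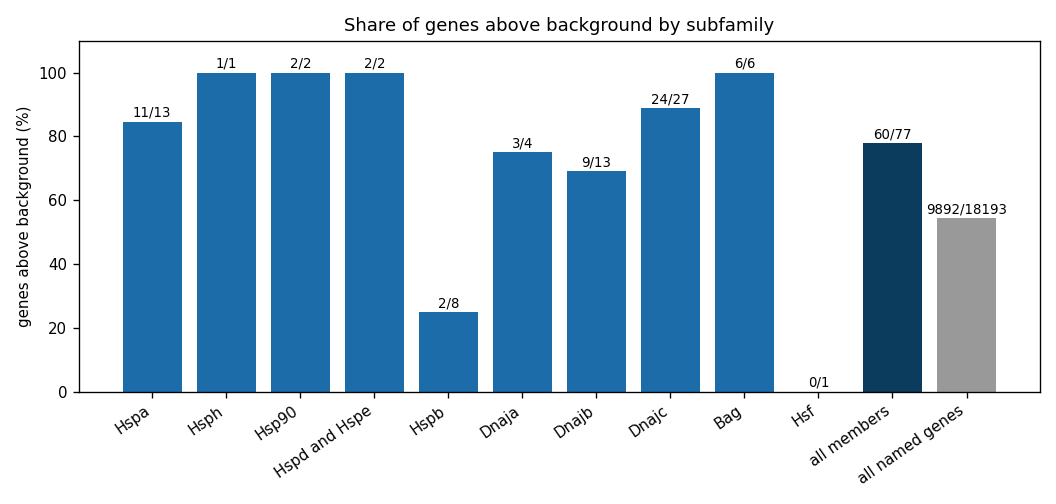
Bars give the percentage of measured genes above background in each subfamily, in all members and in all named genes, with the counts over the bars. Hspb stood at 25.0% (2 of 8) and Hsf at 0 of 1, while all members together reached 77.9% and all named genes 54.4%.

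Among the HSP70 genes, the constitutive forms of the cytosol, the ER and mitochondria were all above background. Hspa8, the constitutive cytosolic chaperone that also uncoats clathrin vesicles, had signals of 60721, 139179 and 63633 in pools 1, 2 and 3. Hspa5, the ER chaperone BiP, had 50938, 72973 and 47371, and Hspa9, the mitochondrial form, had 23644, 22703 and 20317. On these brightest probe sets pool 2 was the highest for Hspa8 and Hspa5 but not for Hspa9, where the range was 1.16-fold. Another probe set of Hspa5 read 13560.0, 13858 and 11608, a range of 1.19-fold with pool 2 still the highest. Its remaining probe set read 8831, 7338 and 6902, with pool 1 the highest. Another probe set of Hspa9 read 4365, 2481 and 2842, a range of 1.76-fold. Hspa4 and Hspa4l, relatives of HSP110 that exchange nucleotide, had 23950.0, 37398 and 24276, and 3384, 2586 and 2079. Another probe set of Hspa4 above background read 13227, 5932 and 7864, a range of 2.23-fold, with pool 2 the lowest rather than the highest. Hspa13, a truncated microsomal form, had 11676, 9718 and 7475. Hspa14, which joins Dnajc2 on ribosomes, had 7607, 13611 and 13491, with pool 1 the lowest, while another of its 3 probe sets above background read 2305, 1928 and 2160.2, with pool 1 the highest. Adjusted p in limma was at most 3.08e-07 for each of these 7 genes.

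The heat-inducible pair Hspa1a and Hspa1b was detected and differed between pools on every probe set. Hspa1b read 11489, 7087 and 3644 in pools 1, 2 and 3, a range of 3.15-fold, and passed limma's test (adjusted p = 1.41e-06). Hspa1a had 3245, 2829 and 1602 (adjusted p = 1.77e-06, limma), a range of 2.03-fold. The other 2 probe sets of Hspa1b read 3538, 2036 and 1288, and 1580, 974 and 536. All 4 probe sets were highest in pool 1 and lowest in pool 3. The genes are near-identical copies, so signal from one could be read by the probes of the other, and their shared direction is not 2 independent observations.

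Other HSP70 genes were detected singly or not at all. Hspa2, best known for its role in male germ cells, had 1627, 1693 and 1617, a range of 1.05-fold, and was above background (adjusted p = 2.56e-07, limma). Hspa1l, the testis form next to Hspa1a and Hspa1b, read 1.90, 18.5 and 9.03, far under the background levels of 197, 186 and 201. The distant relatives Hspa12a and Hspa12b differed. Hspa12b, described in endothelial cells, had 724, 1267 and 1275 and passed (adjusted p = 1.75e-05, limma), while Hspa12a had 181, 298 and 257 and did not (adjusted p = 0.381, limma). Of 4 endothelial markers (Pecam1, Cdh5 and Tek among them) 0 were above background in limma and 0 had an unadjusted p under 0.05. Summed over the list, pools 1, 2 and 3 gave 363, 364 and 383. The part of such cells in the signal of Hspa12b was not tested.

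HSP110, HSP90 and the mitochondrial chaperonin were all detected. Hsph1, the HSP110 exchange factor, had 17962, 22379 and 18363 in pools 1, 2 and 3. Hsp90aa1, the stress-responsive cytosolic HSP90, had 58720.1, 81303 and 52545. Hsp90b1, the ER form known as GRP94, had 27395, 27751 and 24167, a range of 1.15-fold. Its other probe set above background read 13486, 9914 and 6133, a range of 2.20-fold, highest in pool 1 and lowest in pool 3. Hspd1, the barrel of the chaperonin, had 49177, 75881 and 48105, and its lid Hspe1 had 20777, 16845 and 19850.2. Pool 2 was the highest for Hspd1 and the lowest for Hspe1, which share the promoter element shown above. The deviation of Hspd1 in pool 2 from its 3-pool mean was 0.43 on the log2 scale as deposited and 0.04 after quantile normalization. Adjusted p in limma was at most 1.77e-08 for these 5 genes. Of 5 probe sets of Hsp90aa1, 3 were above background. The less bright of these read 28020.5, 23850 and 15312, and 16331, 12311 and 6573, so that both were highest in pool 1 and lowest in pool 3, unlike the brightest.

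Small heat shock proteins were mostly not detected. Hspb11, which despite its name is a subunit of intraflagellar transport, had 9244, 7644 and 7669 in pools 1, 2 and 3. Hspb1, the inducible form that protects actin filaments, had 560.4, 457 and 327 and passed narrowly (adjusted p = 0.00296, limma). It was above background on 1 of 2 probe sets, and it did not pass when background was set at its 99th percentile (adjusted p = 1.0, limma). None of the 5 forms typical of muscle (Hspb2, Hspb3, Hspb6, Hspb7 and Hspb8) passed limma's test, and 0 of 5 had an unadjusted p under 0.05. Hspb8, the partner of Bag3 in selective autophagy, read 96.1, 133 and 111, and Hspb6 read 223, 254 and 340.03. The remaining forms had mean signals of 70.6 for Hspb2, 77.6 for Hspb3 and 56.0 for Hspb7. The testis form Hspb9 read 2.97, 5.43 and 22.1. Small heat shock genes outside the naming rule stood alike: Cryaa, Cryab and Odf1 had 0 of 3 above background, with 0 of 3 at an unadjusted p under 0.05 in limma.

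J-domain genes, the largest group, were above background in 36 of 44 cases (81.8%), against 54.4% of all named genes. The main cytosolic partners of HSP70 were above background on their brightest probe sets. Dnaja1 had 35574, 39052 and 29708, Dnaja2 had 36956, 48965 and 36551, and the inducible Dnajb1 had 16611, 11945 and 13880 in pools 1, 2 and 3 (adjusted p = 1.6e-08 each, limma). Another probe set of Dnaja1 above background read 18991, 11159 and 12789, with pool 2 the lowest. Another of Dnaja2 read 4156, 3103 and 4234, again with pool 2 the lowest. Dnajb6, a suppressor of protein aggregation whose promoter holds a 3-unit heat shock element, had 18775, 18902 and 15565. Dnajc7, which links HSP70 to HSP90, had 9459, 11722 and 11401. Dnajb4 had 2721, 2703 and 3373, and Dnajb2, which sorts ubiquitinated clients, had 1543, 1872 and 2099. Dnajb5 stood at the margin with 304, 283 and 447 (adjusted p = 0.0215, limma), and lost its call without pool 2 (adjusted p = 0.0707) and without pool 3 (adjusted p = 0.127). Dnaja4 did not pass at 130, 269 and 261 (adjusted p = 0.789, limma).

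J-domain genes of the ER were detected without exception. With Hspa5, Hspa13 and Hsp90b1 they make up 14 ER members, all 14 above background, against 54.4% of all named genes. Dnajb11, a cofactor of BiP, had 4255, 5960.2 and 4996, and Dnajb9, which recruits BiP to the stress sensor Ire1, had 3204, 2286 and 2633 in pools 1, 2 and 3. Dnajc10, a disulfide reductase, had 24459, 27710 and 24709, which is a range of 1.13-fold. Dnajc3, an inhibitor of eIF2 alpha kinases and a cofactor of BiP, had 6160.4, 6406 and 2610, with pool 3 under the other pools. Its other 3 probe sets above background did not share that order: the next read 3647, 1662 and 1832. Dnajc1 had 1902, 3089 and 2757, Dnajb14 had 2079, 1505 and 1532, Dnajc18 had 1829, 2073 and 1740, Dnajc25 had 1075, 989 and 1079, and Dnajc16 had 523, 755 and 856. Dnajb12 (483, 511 and 384) and Dnajc22 (352, 403 and 546) were nearest to background, with adjusted p of 0.00125 and 0.00252 in limma, and neither passed with background set at its 99th percentile.

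Mitochondrial members were above background in 9 of 9 cases, against 54.4% of all named genes. Dnaja3 had 6377, 7747 and 9193, Dnajc15, which sits at the inner membrane translocase, had 5044, 4079 and 4507, and Dnajc30 had 4387, 3736 and 4737 in pools 1, 2 and 3. Dnajc11, found with the complex that shapes cristae, had 2742, 2888 and 4304, Dnajc4 had 836, 845 and 1270, and Dnajc28 had 469, 455 and 699. Dnaja3 was called on 1 of 3 probe sets, and that probe set can match several transcripts. With background at its 99th percentile, Dnajc28 did not pass (adjusted p = 0.437, limma).

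Members listed together as nuclear or ribosome-related were above background in 8 of 8 cases, again against 54.4% of all named genes. Dnajc9, a histone chaperone, had 19945, 18233 and 19239, Dnajc8, a spliceosome protein, had 18888, 22146 and 17665, and Dnajc2, the ribosome-bound partner of Hspa14, had 10568, 13595 and 12079 in pools 1, 2 and 3. Dnajc21, needed for maturation of the large ribosomal subunit, had 2498, 3376 and 3447, and Dnajc24, which acts in diphthamide synthesis, had 1557, 1537 and 1083. Dnajc17, a nuclear splicing-associated member, had 3842, 1190 and 2777, with pool 2 under the others. That value rested on 1 of its 3 probe sets, and the other 2 were not above background. Dnajb6 and Hspa14, described above, complete this list.

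Of the members of vesicle traffic 4 of 5 were above background, against 54.4% of all named genes. Dnajc5, the synaptic vesicle protein that also has roles outside neurons, had 13757, 13008 and 12324, Dnajc13, an endosomal protein, had 6919, 8825 and 6625, Dnajc14, an ER membrane protein that guides receptor export, had 2737, 2746 and 3011, and Dnajc27 had 1164, 1593 and 1897 in pools 1, 2 and 3. Dnajc6, the neuronal auxilin that works with Hspa8 on clathrin, read 200.1, 55.3 and 196 and did not pass. Dnajc27 lost its call without probe sets that may match other transcripts (adjusted p = 1.0, limma). Dnajc12, a cochaperone of aromatic amino acid hydroxylases, had 1160, 1027 and 623 (adjusted p = 4.14e-05, limma).

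Forms best known from germ cells were above background in 2 of 10 cases, against 54.4% of all named genes. The 2 were Hspa2 and Hspa4l. Dnajb3 and Dnajb8 lay at background level, with 213, 282 and 314, and 216, 187 and 185 in pools 1, 2 and 3 (adjusted p = 0.171 and 0.993, limma). Dnajb7, Dnajb13, Dnajc5b and Dnajc5g had mean signals of 6.65, 53.6, 98.4 and 31.0, and Hspa1l and Hspb9 are given above. Each of these 8 genes was read by 1 probe set, and a weak probe set would give the same reading as an unexpressed gene.

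The 6 genes of the BAG family were all detected. Bag1, first described as a binding partner of Bcl2, had 6938, 9492 and 10562, Bag2, an inhibitor of the ubiquitin ligase Stub1, had 2707, 4283 and 5171, and Bag6, which guards newly made membrane proteins, had 1792, 2214 and 3038 in pools 1, 2 and 3. These genes were lowest in pool 1 and highest in pool 3. Bag3, the inducible member that works with Hspb8 in autophagy, had 2177, 1756 and 2666. Bag4 had 3685, 3222 and 3586, and Bag5 had 3364, 3590.2 and 3588, a range of 1.07-fold. Of the 6 genes 4 were highest in pool 3, against 43.0% of all genes above background. Adjusted p in limma was at most 4.45e-07 for each.

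The heat shock factor Hsf2, which is active in development, read 257, 246 and 73.5 on its better probe set, with pools 1 and 2 over and pool 3 under the background level (adjusted p = 1.0, limma). Its relatives Hsf4 (mean signal 149), Hsf5 (70.0) and Hsf2bp (139), a binding partner of Hsf2, did not pass either. Hsbp1, a small protein that binds the trimer domain of Hsf1, had 9209, 6497 and 8803 and did, so that 1 of 4 genes of that list was above background.

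Most genes of other cytosolic chaperone systems were above background, against 54.4% of all named genes. Of 9 TRiC genes, which form the cytosolic chaperonin, 8 were above background, including Cct4 (40103, 39547 and 32091 in pools 1, 2 and 3), Cct7 (37558, 46487 and 37570.5) and Cct8 (22829, 37730 and 20412). Cct6b, the testis form, was the exception at 112, 58.6 and 29.4. All 6 prefoldin genes passed, among them Pfdn5 (8375, 9344 and 8339), Pfdn4 (6716, 7484 and 7945), Pfdn1 (1505, 1771 and 2174) and Vbp1 (5855, 7517 and 6530.1). Of 16 measured cochaperones of HSP70 and HSP90, 15 passed, with Chordc1 at 14265, 13900.3 and 13143, St13 at 19342, 23439 and 19241, and Hspbp1 at 654, 684 and 781. The muscle myosin chaperone Unc45b did not (57.7, 68.7 and 2.82).

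Folding factors of organelles outside the rule were above background without exception. All 19 ER folding and stress genes passed, as did all 8 mitochondrial ones, against 54.4% of all named genes. In the ER, Sec61b read 28889, 27282 and 26059 and Calr read 20848, 17749 and 19625. The nucleotide exchange factor Hyou1 read 1640.5, 495 and 496 (adjusted p = 0.00144, limma), and the stress transcription factor Ddit3 read 642, 927 and 2000 (adjusted p = 0.000131, limma). On these probe sets Hyou1 was thus high in pool 1 and Ddit3 in pool 3. Hyou1 was above background on 1 of 3 probe sets and Ddit3 on 1 of 2. In mitochondria, Grpel1 read 10342, 10431 and 13571, Timm44 12515, 17926 and 18697, Clpx 3468, 2952 and 3039, and Hscb 940, 759 and 927.

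Differences between pools were close in size to those of all detected genes, and are given without a test because each pool is 1 array. Among the 60 members above background, the median range between the highest and lowest pool was 0.48 on the log2 scale, against 0.44 for all genes above background. The median coefficient of variation was 17.7% for the members and 16.2% for all. On each gene's brightest probe set, pools differed at least 2-fold in 5 of the 60 members, namely Hspa1b, Hspa1a, Hspa8, Dnajc3 and Dnajc17, against 6.87% of all genes above background. Just below that threshold stood Bag2 and Dnajc12, at ranges of 1.91-fold and 1.86-fold. Pool 1 was the highest for 18 of the 60 members, against 29.5% of all genes above background, pool 2 for 23, against 27.5%, and pool 3 for 19, against 43.0%. The count of members differing at least 2-fold was 3 without pool 1, 3 without pool 2 and 2 without pool 3, where fewer arrays set the range. It was 8 when arrays were centred on their medians. The matching shares of all genes are not given for these settings.

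Hspa1a and Hspa1b moved between pools in the opposite direction to genes of the immediate-early response. Of the 16 immediate-early and stress genes measured, 14 were above background, and 12 of these 14 were highest in pool 3, against 43.0% of all genes above background. Socs3, a feedback inhibitor of cytokine signalling, read 7819, 6349 and 16996, Btg2 read 2633, 3209 and 6082, and Fosb read 1324, 698 and 1875 in pools 1, 2 and 3. Atf3 read 180, 165 and 483 and did not pass. The median deviation from each gene's own 3-pool mean was -0.28 in pool 1, -0.15 in pool 2 and 0.42 in pool 3 for the immediate-early genes. For the 12 detected of 13 heat-inducible members it was 0.08, 0.13 and -0.25, and 1 of these 12 (Bag3) was highest in pool 3 on its brightest probe set. Among the other probe sets of these members above background, only that of Dnajb1 was highest in pool 3, at 1498, 2168 and 2696. After quantile normalization these medians were 0.14, 0.03 and -0.05, so pool 3 was still the lowest but by much less. In pool 3, Hspa8 then moved from -0.35 to -0.02 and Hspd1 from -0.23 to -0.02. With arrays centred on their medians, the medians of the heat-inducible members were -0.05, 0.15 and -0.13. For all genes above background, the pool 3 median was 0.06 as deposited, 0.06 after quantile normalization and 0.17 after centring. As deposited, the deviations of Hspa1b were 0.78, 0.09 and -0.87, and those of Hspa1a were 0.40, 0.21 and -0.61. Pool 1 was the highest and pool 3 the lowest for both genes also after quantile normalization and after centring arrays on their medians, and pool 3 held the highest median of the immediate-early genes in each. A profile that is highest in pool 1 and lowest in pool 3 was held by 9 of 60 members, against 13.8% of all genes above background, a share near the background.

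**Figure D3:**
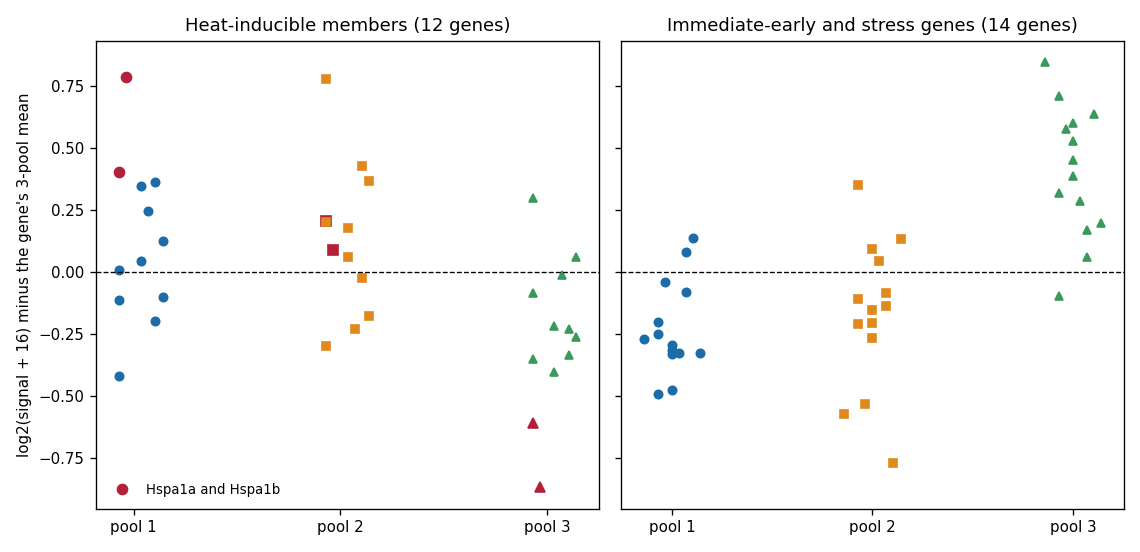
Points give log2(signal + 16) minus each gene's 3-pool mean, by pool, for 12 heat-inducible members (left) and 14 immediate-early and stress genes (right) above background, with small sideways shifts to separate points. Hspa1a and Hspa1b (red) lie at 0.40 and 0.78 in pool 1 and at -0.61 and -0.87 in pool 3, whereas 12 of 14 immediate-early genes are highest in pool 3.

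The brightest members shared a pool 2 maximum that other bright probe sets also had. All 6 member probe sets with a mean signal over 40000, which belong to Hspa8, Hspa5, Hspd1, Hsp90aa1 and Dnaja2, were highest in pool 2, and so were 97.0% of the 363 probe sets over that signal on the arrays. Among probe sets above background with a mean signal up to 40000, 25.1% were highest in pool 2. The median ratio of pool 2 to the mean of pools 1 and 3 was 1.46 for probe sets over 40000, 1.17 between 20000 and 40000, and 0.92 under 1000. After quantile normalization the range of Hspa8 between pools was 0.43 on the log2 scale, against 1.20 with signals as deposited. Of its other probe sets, one read 46653, 100899 and 50236, with pool 2 the highest. The remaining ones, with means under 40000, read 32527, 27651 and 25603, and 3640.2, 3220.1 and 1251, with pool 1 the highest on both. A higher level of Hspa8, Hspa5, Hspd1, Hsp90aa1 or Dnaja2 in pool 2 therefore cannot be told apart from this dependence on signal. The ranges of Hspa1b were 1.65 as deposited and 1.71 after quantile normalization.

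**Figure D4:**
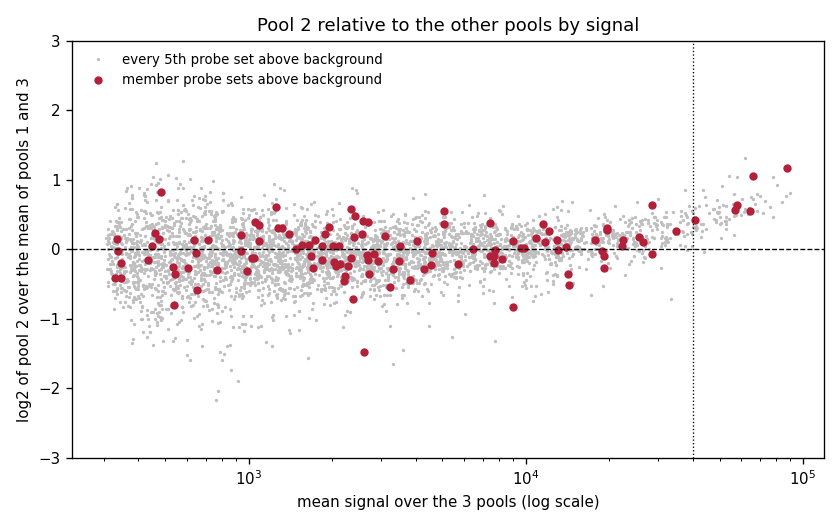
Each point is a probe set above background, with its mean signal over the 3 pools (log axis) and the log2 ratio of pool 2 to the mean of pools 1 and 3. Member probe sets are red, every 5th of all probe sets is grey, and the dotted line marks a signal of 40000, over which all 6 member probe sets lie above 0.

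RNA quality and other cells were read from control probe sets and markers. The 3' over the 5' control signal was 20.5, 33.1 and 16.9 for Gapdh and 3.54, 9.72 and 9.08 for beta-actin in pools 1, 2 and 3, and their part in the differences between pools was not tested. All 6 cap mesenchyme markers were above background, including Six2 (8734, 5727 and 9255), Cited1 (770.2, 1009 and 853) and Eya1 (36260, 36418 and 28645). Of 4 stromal markers 2 passed, among them Foxd1 (7370, 7389 and 7938) but not Tbx18 or Ntn1. Of 4 ureteric bud markers Wnt11 alone passed (454, 282 and 600), with Ret and Gata3 under background. Macrophage markers (0 of 4, Csf1r, C1qa and Cd68 among them) and erythroid markers (0 of 3, Hba-a1, Hbb-y and Alas2) did not pass limma's test, and 0 had an unadjusted p under 0.05. Summed signals in pools 1, 2 and 3 were 374, 509.7 and 656 for the macrophage markers and 36.0, 32.0 and 30.1 for the erythroid ones.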

How the data were processed

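Expression was measured in 3 samples of sorted E15.5 cap mesenchyme, 1 array each. For 45101 probe sets, the authors deposited array intensity on a linear scale. GCOS is the software named in the submitters' processing notes, and its version and settings are not given in the sources used here. Each array's mean, with 2% of probe sets trimmed at either end, came to 1500, so differences in total signal had been removed before deposit. The number of arrays limits the precision. The labels do not say whether pools came from separate litters, so p-values measure only the spread between these 3 samples, which may be technical.

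Gene symbols came from GEO's platform annotation, which can be old (34945 with 1 gene symbol, 932 with several, 9160 with none, 64 controls). All 77 members matched a RefSeq gene by Entrez identifier. The platform's genome build is not stated, so only RefSeq promoters carry coordinates (GRCm38.p6). From log2(signal + 16), each array's background level was subtracted, the 95th percentile of 150 probe sets for olfactory, vomeronasal and bitter taste receptors, keratin-associated proteins and defensins, and limma 3.58.1 (R 4.3.3) tested the 3-array mean against 0, one-sided, with an intercept-only model, an intensity trend and Benjamini-Hochberg adjustment over 45037 probe sets. Of these 150 probe sets 2 passed. The pseudocount of 16 understates differences among low signals. The fit was tested on simulated data. It called few of the simulated probe sets placed slightly over the background level, so genes there can be missed. Tables and plots were made with Python 3.11.15, pandas 2.3.3 and matplotlib 3.10.9.

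The members and gene lists were chosen with earlier results of these data known. Every member could be named. From each list of other chaperones, the 2 genes with the largest and the 2 with the smallest moderated statistic could be, from the stress list the 4 with the largest range, and from each marker list the first 3. Hspd1, Hspe1, Hspa4l and Hspb8 belong to 2 lists each. Alternatives changed the background percentile, pseudocount, variance model, normalization, probe sets, gene summary and arrays used. A probe set annotated to several genes was used for none.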

Additional observations from a re-analysis of the deposited data

How the results depend on the processing

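The count of 60 members above background lay between 51 and 62 in 12 alternative fits, and between 59 and 60 in those that left out a pool. When every probe set of a gene had to pass, which asks more of genes with many probe sets, 35 members did, among them 1 Hsp90, 0 Hspb, 1 Dnaja, 5 Dnajb and 13 Dnajc genes in limma. With probe sets of the suffixes _s_at, _x_at and _a_at (designs that can match several transcripts) removed, 75 member probe sets passed, and 0 Hsph, 1 Hsp90, 1 Hspb and 5 TRiC genes. Of the 60 members 6 have no other probe set. In that setting Dnaja3 (-2.55), Dnajb5 (-2.55) and Dnajc27 (-0.49) lay under the background level on the log2 scale. With background at its 99th percentile, Dnajb5 (-0.38), Dnajc22 (-0.058) and Hspb1 (-0.022) did so, Dnajb12 and Dnajc28 did not pass, and 1 Hspb and 1 stromal gene passed. The ureteric bud count was then 0 of 4 in limma, with 0 at an unadjusted p under 0.05. At the 90th percentile, Dnajb3 and Hspb6 passed (adjusted p = 0.0303 and 0.0301, limma), which makes 1 muscle form, and 1 macrophage gene did. Members differing at least 2-fold between pools numbered 8 with arrays centred on their medians, 2 to 3 when a pool was left out, 27 at a 1.5-fold threshold and 13 with genes not above background included. Leaving out probe sets over 40000 in any pool, an alternative chosen after seeing the data, gave 4. Shares of all genes or probe sets under these alternatives are not given here. The counts therefore show how the members' own counts moved, and not whether they exceed the rate on the arrays. Centring on medians moved the median deviation of all genes above background to -0.17, 0.00 and 0.17 in pools 1, 2 and 3, against -0.04, -0.02 and 0.06 as deposited. The cause of these moves was not tested. No paired analysis was possible because the samples form 1 group. With 3 arrays and no control cells, a level near background cannot be resolved.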

Other observations

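Dnajc19, a subunit of the mitochondrial import motor, was read only by probe sets annotated also to its pseudogene Dnajc19-ps, so it named no member. Of these 3 probe sets, the brightest read 3399.9, 1984 and 3125 in pools 1, 2 and 3 and passed limma's test (adjusted p = 2.73e-07). Another read 403, 367 and 236 (adjusted p = 0.0377, limma), and the last, at 86.55, 99.2 and 121, was not above background.

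Probe sets of a member often disagreed. Of the 42 members above background with several probe sets, 25 (59.5%) had at least 1 that was not above background, against 64.4% of the 6484 such genes on the arrays. Bag5 was among them, at 3364, 3590.2 and 3588 on one probe set and at 48.8, 64.3 and 10.8 on the other.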
